A study of Mus musculus with 12 samples.

Results

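The change of mature miRNA levels after 24 h of tunicamycin was compared between mouse embryonic fibroblasts without ATF4 (KO) and wild-type fibroblasts (WT). The quantity is an interaction on the log2 scale: the KO response (KO at 24 h minus untreated KO) minus the WT response (WT at 24 h minus untreated WT). A positive value means that the level went up more, or down less, in KO cells. Its members are all 611 mouse miRNA names on the array, of the 650 names it carries, and it uses 8 of the 12 arrays of the study. Of the 611, 145 were tested, each well above background on the 2 arrays of some group, and the rest were too dim, 405 of them on every array.

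The cells were embryonic fibroblasts on the C57BL/6 background, with the genotype labels ATF4KO and ATF4WT, cultured in serum-containing medium with 2-mercaptoethanol and non-essential amino acids. The groups used for the interaction were KO cells given 2 ug/mL tunicamycin for 24 h, untreated KO cells, WT cells given the same dose for 24 h, and untreated WT cells, each with 2 arrays that the design text describes as independent experiments. KO and WT groups at 12 h of tunicamycin, also with 2 arrays each, entered the estimate of spread and a comparison of the times. How many animals or lines the cells came from is not given in the sources used here. No Atf4 mRNA is measured on a miRNA array, so nothing in these data checks the genotype labels.

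Tunicamycin blocks N-linked glycosylation, so that unfolded glycoproteins collect in the endoplasmic reticulum (ER) and start the unfolded protein response. Of the sensors in the ER membrane, PERK phosphorylates the initiation factor eIF2 alpha, which slows most translation but raises that of ATF4, a transcription factor of amino acid metabolism and redox genes and of the death-linked factor CHOP. The other sensors are IRE1, an RNase that splices Xbp1 mRNA, and ATF6, which is cut to release a transcription factor. A miRNA guides an Argonaute protein to mRNAs that pair with its seed, the bases near its start, and lowers their stability and translation, and in fibroblasts mature miRNAs are often stable over many hours.

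The mature sequences of the miRNAs that passed the test are shown because miRNAs with the same seed share most predicted targets, and because several of them have relatives on the array. Those of 10 of the 12 are given, from RefSeq (GRCm38.p6), and miR-34c and miR-455 are named only. Capitals mark the seed, bases 2 to 8, and each is written 5′ to 3′. The first pair share the seed of the miR-34 family, and the next 3 the seed of the miR-15/16 family, of which miR-16 is shown as an abundant relative that did not pass.
miR-34a: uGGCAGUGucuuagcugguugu
miR-34b-5p: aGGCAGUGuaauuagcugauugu
miR-497: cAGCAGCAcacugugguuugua
miR-195: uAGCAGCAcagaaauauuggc
miR-16: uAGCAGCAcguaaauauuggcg
miR-26a: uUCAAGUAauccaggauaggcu
miR-26b: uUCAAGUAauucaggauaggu
let-7c: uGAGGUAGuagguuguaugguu
let-7b: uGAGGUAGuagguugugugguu
miR-146b: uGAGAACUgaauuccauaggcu
miR-146a: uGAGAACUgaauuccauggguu
miR-148a: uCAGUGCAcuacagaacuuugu
miR-130a: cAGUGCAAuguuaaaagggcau
miR-210: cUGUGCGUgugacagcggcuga
The let-7b and let-7c sequences differ at 1 position, and signal shared between such close relatives on the array was not tested.

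A level is the log2 of a miRNA's signal relative to the 75th percentile on its array, taken over the 82 miRNAs detected on all 12 arrays, and levels under a floor of -4.96 were set to it. Before scaling, that percentile ran from 203.5 in KO at 24 h, replicate 1, to 791.2 in untreated KO, replicate 2, and 92 to 164 mouse miRNAs per array were well above background. The spread between the 2 arrays of a group differed much. The pooled SD was 0.95 in KO at 24 h, 0.13 in untreated KO, 0.51 in WT at 24 h and 0.15 in untreated WT. The 12 h groups, which entered the estimate of spread, had the largest, 1.23 in WT and 1.11 in KO. Because the untreated arrays shared 1 slide and the tunicamycin arrays the other, slide and treatment cannot be told apart, and KO and WT lay in different rows of each. Of 7 miRNAs known for their high level in fibroblasts, 6 were well above background (not miR-145), 5 of them on all 8 arrays, with a summed scaled level of 26.1 to 35.7 in KO at 24 h, 34.4 to 34.7 in untreated KO, 25.1 to 29.9 in WT at 24 h and 42.9 to 43.7 in untreated WT. Most of each sum was miR-21, and the members did not go 1 way. In untreated cells KO minus WT was 2.43 for miR-199a-5p, 1.20 for miR-199a-3p, 1.81 for miR-214 and 0.12 for miR-143, but -0.56 for miR-21 and -0.69 for miR-22. Of the lists for other cells, the 7 epithelial, 8 blood and endothelial, 13 pluripotent and 1 liver miRNAs were well above background on none of the 8 arrays, and of 6 muscle and 7 neural miRNAs 1 each was on some array, miR-206 and miR-218.

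After 24 h of tunicamycin, 12 of the 145 miRNAs (8.28%) differed in their response between the genotypes at an adjusted p under 0.05 (limma, Benjamini-Hochberg): 11 had a higher response in KO cells and 1, miR-455, a lower one. The 11 were miR-34a, miR-34b-5p and miR-34c of the p53-linked miR-34 family, miR-497 and miR-195 of the miR-15/16 family, miR-210, miR-146b, miR-148a, miR-26a, let-7c and miR-130a. At an unadjusted p under 0.05 there were 36. The median interaction over all 145 was 0.34, with 113 of them above 0 and 31 below. Of the 12, 10 lay more than 0.5 beyond that median, but they were chosen on this same quantity, so this is no support for them. Some miRNAs that did not pass, such as miR-146a and miR-221, lay as far from it. The split of calls depended on the scaling: it was 8 higher and 7 lower without scaling, 4 and 1 with median scaling, 0 and 1 after quantile normalization, and there was no call with the 75th percentile taken over all mouse miRNAs or with normexp background correction.

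**Figure D1:**
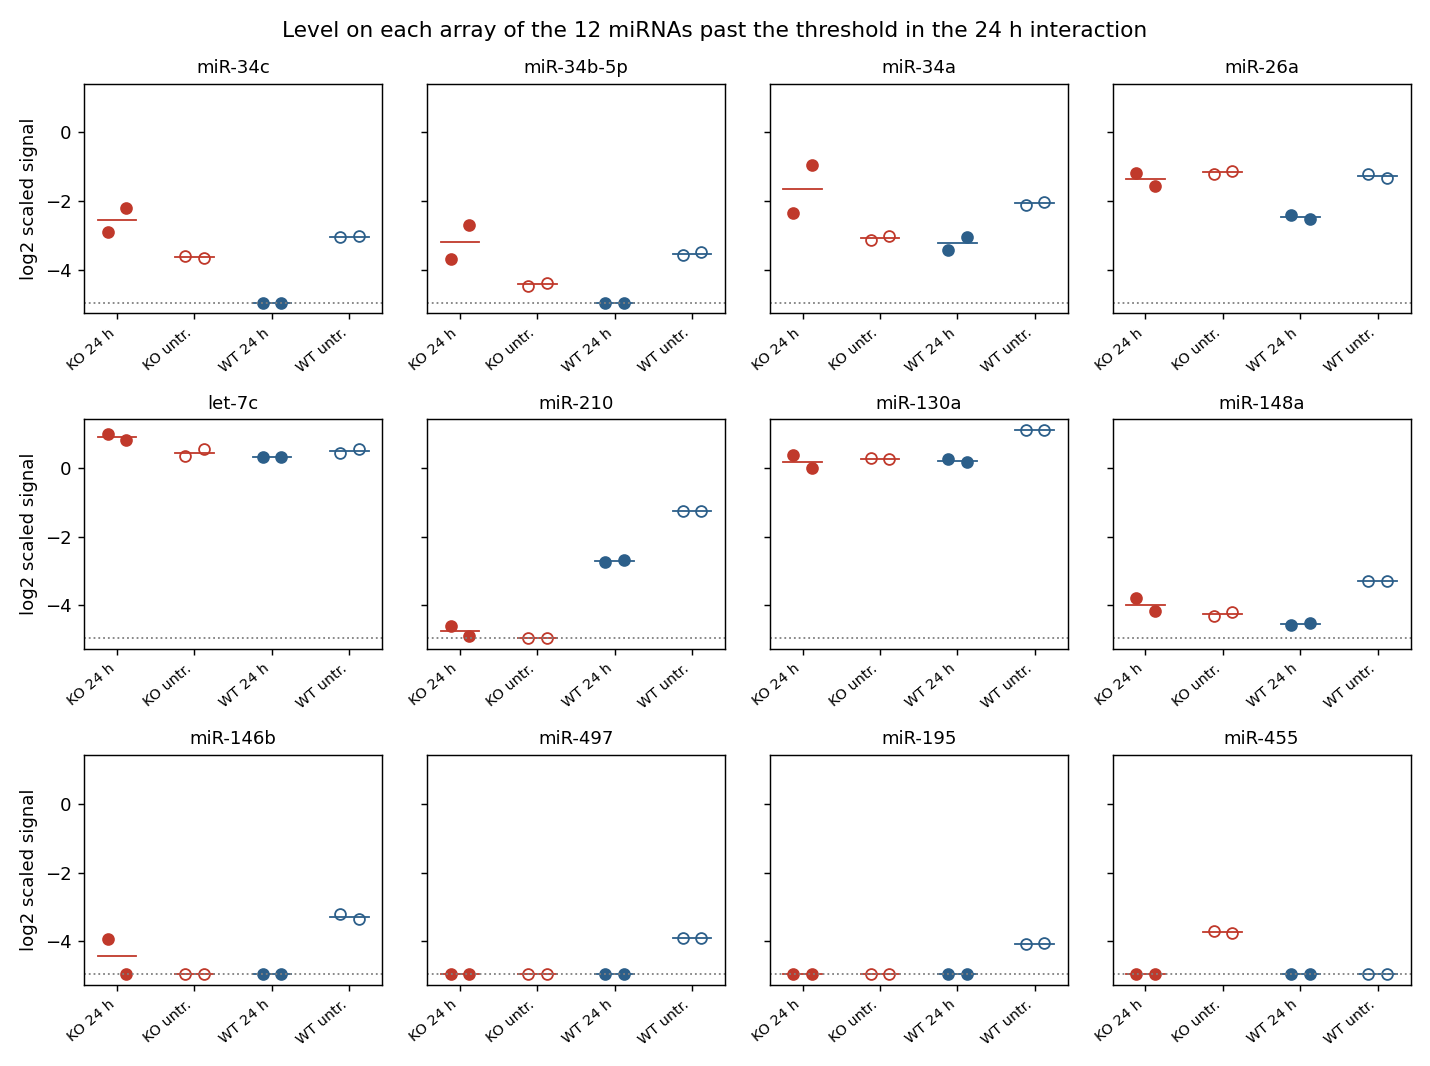
Level of the 12 miRNAs on each of the 8 arrays, as log2 of the signal relative to the array's 75th percentile. Points are arrays (replicate 1 left, replicate 2 right), bars are group means, red is KO, blue is WT, filled points are 24 h of tunicamycin, open points are untreated cells, and the dotted line is the floor at -4.96, where miR-497, miR-195 and miR-455 lie on 6 of the 8 arrays.

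The same interaction can be read as the genotype difference at 24 h minus that in untreated cells. KO differed from WT in 22 miRNAs (15.2%) at 24 h, 11 higher and 11 lower with a median of 0.00, and in 47 miRNAs (32.4%) in untreated cells, 10 higher and 37 lower with a median of -0.49. With median scaling the splits were 2 higher and 3 lower at 24 h, and 6 and 8 untreated. Without scaling they were 4 and 2 at 24 h, and 14 and 12 untreated. Of the 12 miRNAs, 4 differed between the genotypes at 24 h and did not pass in untreated cells (miR-34c, miR-34a, miR-26a and let-7c), 6 differed in untreated cells and did not pass at 24 h (miR-130a, miR-148a, miR-146b, miR-497, miR-195 and miR-455), and 2 differed in both (miR-34b-5p and miR-210). With the scan date as a block, miR-34a passed in neither state (adjusted p = 0.0867 at 24 h), miR-34b-5p passed at 24 h only (adjusted p = 0.0519 untreated), and the other 10 stayed as given.

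**Figure D2:**
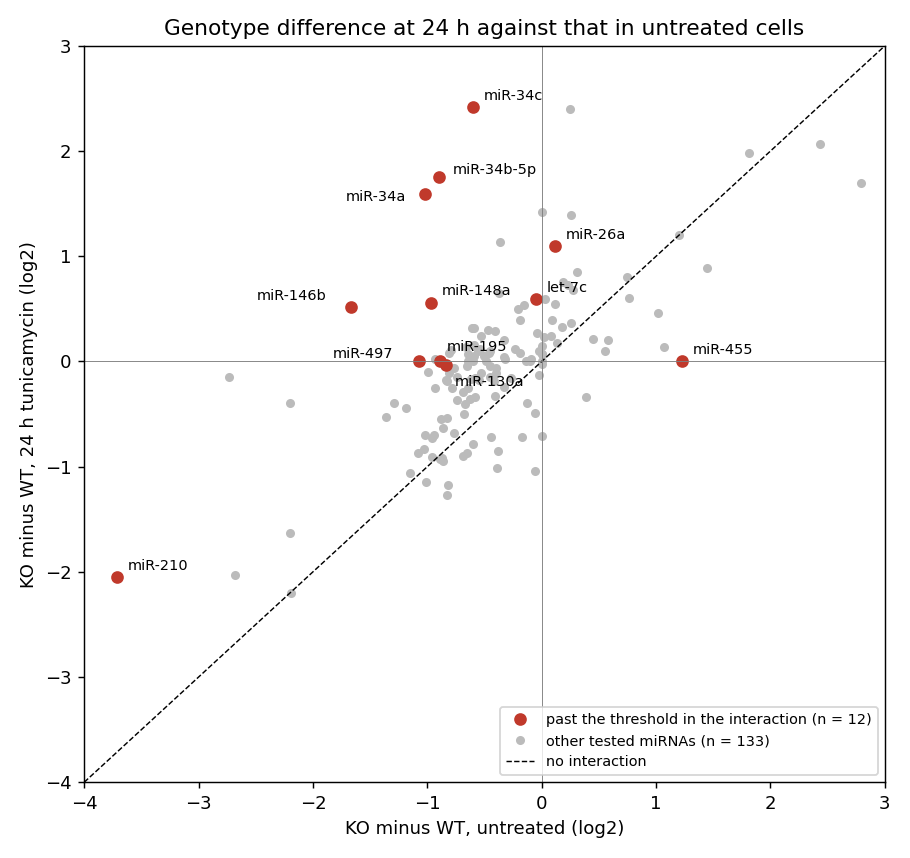
KO minus WT at 24 h of tunicamycin (vertical) against KO minus WT in untreated cells (horizontal), both as log2 differences, for the 145 tested miRNAs. Red points passed the test of the interaction, and on the dashed line the interaction is 0. The miR-34 family, miR-26a and let-7c lie above 0 on the vertical axis, while miR-497, miR-195, miR-130a and miR-455 lie at or near 0 on it.

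Within each genotype, tunicamycin for 24 h changed 3 miRNAs (2.07%) in KO cells, where miR-34c and let-7b were higher and miR-455 lower than untreated, and in WT cells it lowered 22 (15.2%) and raised 0 past the threshold. At an unadjusted p under 0.05 there were 26 miRNAs in KO and 50 in WT. Without scaling the calls were 0 higher and 55 lower in KO, and 0 higher and 63 lower in WT. Of the 12 miRNAs, 9 were among those lowered in WT, and 8 of these 9 did not pass in KO. For miR-34a and let-7c neither response passed on its own. The spread in KO at 24 h was larger than in the other 3 groups of the interaction. The fit pools the spread of a miRNA over all groups, so its KO and WT responses have the same standard error. A p that misses the threshold in KO does not show that KO cells did not respond.

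The miR-34 family is transcribed by p53 and represses cell cycle and survival genes, and its members showed the largest interactions of the 12. The hairpins of miR-34b and miR-34c lie together on the same primary transcript, at chr9:51103562-51103645 and chr9:51103034-51103110 (GRCm38.p6), within the annotated spans of Hoatz and Btg4, and miR-34a lies alone at chr4:150068454-150068555. MiR-34c had levels of -2.89 and -2.19 on the KO arrays at 24 h, against -3.60 and -3.66 in untreated KO. In WT it was at the floor of -4.96 on both arrays at 24 h, against -3.04 and -3.03 untreated. On the scaled levels, the KO and WT arrays at 24 h did not overlap, and miR-34c went opposite ways in the genotypes. The 75th percentile used for scaling was 203.5 and 566.3 in KO at 24 h, against 709.5 and 791.2 in untreated KO. Without scaling no miRNA passed as higher in KO at 24 h than untreated, so the call of a rise of miR-34c in KO depends on the scaling. Its interaction was 3.01 ± 0.28 (SE, adjusted p = 0.000586), a KO response of 1.09 ± 0.20 (adjusted p = 0.0410) minus a WT response of -1.92 ± 0.20 (adjusted p = 0.00116). Since miR-34c was not well above background on either WT array at 24 h, folds against that group are bounds: it was at least 2.87-fold lower in WT at 24 h than untreated, at least 4.04-fold higher in KO than in WT at 24 h, and the ratio of the 2 responses was at least 6.11-fold. Such a bound sets the dim group at the lowest level well above background on its array, and does not allow for the standard error or for other processing.

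MiR-34b-5p, from the same transcript, had the same order of groups, and signal shared with miR-34c on the array was not tested. Its levels were -3.70 and -2.71 in KO at 24 h, against -4.47 and -4.39 in untreated KO, and it was at the floor on both WT arrays at 24 h, against -3.56 and -3.50 in untreated WT. The interaction was 2.65 ± 0.39 (adjusted p = 0.00739), with a ratio of responses of at least 4.76-fold. Its KO response of 1.23 ± 0.28 did not pass (adjusted p = 0.0710), and its fall in WT did (-1.43 ± 0.28, adjusted p = 0.0135, at least 2.04-fold lower). Of the KO arrays at 24 h, 1 of 2 was well above background for it.

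MiR-34a, reported to be cleaved by IRE1 under ER stress, was measured above background on all 8 arrays. Its levels were -2.35 and -0.95 in KO at 24 h, against -3.15 and -3.02 in untreated KO, and -3.42 and -3.05 in WT at 24 h, against -2.11 and -2.02 in untreated WT. Both KO arrays at 24 h were above both untreated KO arrays and both WT arrays at 24 h, but they lay further apart from each other than the arrays of the other 3 groups did, replicate 2 being the higher. The interaction was 2.60 ± 0.59 (adjusted p = 0.0430), or 6.07-fold, and the KO to WT difference at 24 h was 1.59 ± 0.41 (adjusted p = 0.0444). With the scan date as a block neither passed, with an adjusted p of 0.0603 for the interaction and 0.0867 for the difference at 24 h.

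MiR-26a and let-7c were the other miRNAs in which the genotypes differed at 24 h and not, by the test, in untreated cells. MiR-26a, which lies within Ctdspl and Ctdsp2, genes of small phosphatases, on chromosomes 9 and 10, is abundant in many differentiated cells. It had levels of -1.17 and -1.56 in KO at 24 h, against -1.20 and -1.12 in untreated KO, and -2.40 and -2.53 in WT at 24 h, against -1.22 and -1.34 in untreated WT. Only the WT arrays at 24 h stood apart from the other 6 arrays. The KO response was -0.20 ± 0.15 (adjusted p = 0.494), the WT response -1.18 ± 0.15 (adjusted p = 0.00333), and the interaction 0.97 ± 0.22 (adjusted p = 0.0430), or 1.97-fold. Its relative miR-26b, which differs from it outside the seed, had an interaction of 0.80 ± 0.23 that did not pass (adjusted p = 0.0731).

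Let-7c belongs to the let-7 family, which represses growth genes such as Ras and Hmga2 and is high in differentiated cells. Its levels were 0.99 and 0.83 in KO at 24 h, against 0.35 and 0.57 in untreated KO, and 0.32 on both arrays of WT at 24 h, against 0.44 and 0.57 in untreated WT. The KO arrays at 24 h were above all the others, by a small margin. The interaction was 0.64 ± 0.15 (adjusted p = 0.0430), or 1.56-fold, which is 0.30 above the median of all tested miRNAs, and with the replicate number as a block its adjusted p was 0.0514. All 9 tested let-7 members had interactions above 0, beside 113 of 145, from 0.25 to 0.91 with a median of 0.44 beside 0.34 for all tested, and let-7c alone passed. With the 75th percentile over all mouse miRNAs the let-7 median was -0.62 beside -0.52 for all tested. Let-7b had levels of 1.17 and 1.27 in KO at 24 h, against 0.38 and 0.65 in untreated KO. Its KO response of 0.71 ± 0.13 passed (adjusted p = 0.0410), and its interaction of 0.70 ± 0.18 did not (adjusted p = 0.0597).

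MiR-210, the miRNA known for its induction by hypoxia-inducible factors and its repression of mitochondrial iron-sulfur assembly, was low in KO cells with and without tunicamycin. Its levels were -4.60 and -4.89 in KO at 24 h, and at the floor on both untreated KO arrays, although flagged above background there. In WT they were -2.72 and -2.66 at 24 h, against -1.26 and -1.24 untreated. No KO array overlapped with a WT array. The WT response was -1.44 ± 0.18 (adjusted p = 0.00314), and the difference between KO and WT was -2.05 ± 0.18 at 24 h (adjusted p = 0.000620) and -3.71 ± 0.18 untreated (adjusted p = 1.94e-05). The interaction of 1.66 ± 0.25 (adjusted p = 0.00776) thus came with a narrower gap between the genotypes at 24 h than untreated. With KO at or near the floor, a fall in KO cells of the size seen in WT could not have been measured.

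MiR-130a, miR-148a and miR-146b were lower in KO than in WT in untreated cells, and the genotypes did not differ by the test at 24 h. MiR-130a, known in human preadipocytes for repressing PPARG, had levels of 0.38 and 0.01 in KO at 24 h, against 0.29 and 0.26 in untreated KO, and 0.26 and 0.18 in WT at 24 h, against 1.12 and 1.11 in untreated WT. The untreated WT arrays stood above the other 6. The interaction was 0.81 ± 0.19 (adjusted p = 0.0468), from a KO response of -0.08 ± 0.14 (adjusted p = 0.752) and a WT response of -0.89 ± 0.14 (adjusted p = 0.00636). It was well above background on all 8 arrays.

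MiR-148a, known for repressing the DNA methyltransferase DNMT1 in human cells, had levels of -3.79 and -4.17 in KO at 24 h, against -4.31 and -4.20 in untreated KO, and -4.58 and -4.50 in WT at 24 h, against -3.29 on both untreated WT arrays. Again untreated WT was the high group. Its interaction was 1.53 ± 0.34 (adjusted p = 0.0430), and it was well above background on 1 of 2 arrays of each genotype at 24 h. MiR-146b, which is linked to inflammation and represses Irak1 and Traf6, was at -3.92 and at the floor on the KO arrays at 24 h, and at the floor on both untreated KO arrays. In WT it was at the floor on both arrays at 24 h, against -3.21 and -3.35 untreated. Its interaction was 2.20 ± 0.44 (adjusted p = 0.0324). In WT it was at least 2.42-fold lower at 24 h than untreated, and no bound on the interaction could be given, since the KO values also lay at the floor. MiR-146a, with the same seed, had an interaction of 2.58 ± 0.78 that did not pass (adjusted p = 0.0796).

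MiR-497, miR-195 and miR-455 had, with miR-34c, the 4 smallest p-values. Each was at the floor on 6 of the 8 arrays, so its interaction is the height of a single group above the floor, and its standard error does not measure the spread of the other 3 groups. That group was also the only one through which each entered the test. The filter and the interaction thus rest on the same values, and these calls do not count as support. MiR-497 and miR-195, neighbours on chromosome 11 at chr11:70234717-70234800 and chr11:70235042-70235135 (GRCm38.p6), repress cyclins and other cell cycle genes with the miR-15/16 seed. MiR-497 was at -3.89 and -3.90 and miR-195 at -4.09 and -4.04 on the untreated WT arrays, and both were at the floor in all other groups. MiR-497 was at least 1.58-fold and miR-195 at least 1.41-fold lower in WT at 24 h than untreated. Their interactions were 1.07 ± 0.09 (adjusted p = 0.000407) and 0.89 ± 0.09 (adjusted p = 0.000739), and no bound on either could be given. MiR-455, encoded at chr4:63256851-63256932 within the collagen gene Col27a1, was at -3.69 and -3.76 on the untreated KO arrays and at the floor in the other groups. It was at least 1.81-fold lower in KO at 24 h than untreated, with an interaction of -1.23 ± 0.09 (adjusted p = 0.000407). With a floor 4 times higher, the interactions of 5 of the 12, these 3 among them, were 0.

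Computed from the 4 arrays of each replicate number, the interaction differed between the 2 sets by a median of 0.42 in absolute value over all tested. Replicate numbers pair KO with WT arrays of a treatment state, but not untreated with tunicamycin arrays. Each set thus joins untreated and tunicamycin arrays that are not shown to belong together. The 12 were chosen on these same arrays, so their shared sign in both sets is no sign of stability. The miR-34 family was higher in replicate 2: 3.39 against 2.63 for miR-34c, 3.14 against 2.16 for miR-34b-5p, and 3.10 against 2.10 for miR-34a. MiR-146b, miR-148a and miR-26a were higher in replicate 1, at 2.79, 1.82 and 1.20 against 1.61, 1.24 and 0.75. Arrays of KO and WT with the same number and treatment state were scanned on the same date. With the date as a fixed block in the fit of all 12 arrays, 16 miRNAs passed (11%), 15 higher and 1 lower, including 11 of the 12. MiR-34a did not pass, and miR-26b, miR-129-3p, miR-129-5p, let-7b and let-7g did in addition. On the 8 arrays of the interaction alone the date block left 2 residual degrees of freedom, and 0 miRNAs passed. Of the 96 tested miRNAs with no array at the floor 5 passed, of the 33 with 1 to 4 arrays at the floor 3 passed, and of the 16 with 5 to 8 it was 4. The share that passed was thus highest where most arrays lay at the floor. When the test was limited to the 83 miRNAs detected on all 8 arrays, none of the 4 that remained of the 12 passed.

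**Figure D3:**
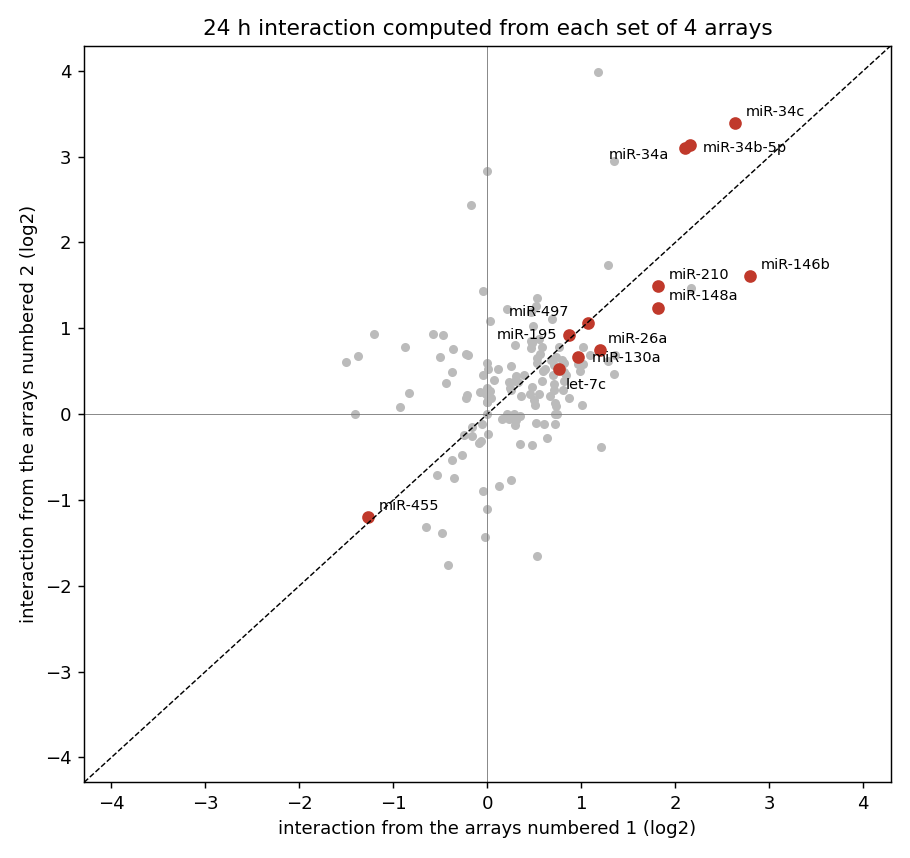
The 24 h interaction of the 145 tested miRNAs computed from the 4 arrays numbered 1 (horizontal) and from the 4 arrays numbered 2 (vertical), both as log2 values, with the line of equality dashed. The 12 miRNAs that passed the test on all 8 arrays are in red, and among them the miR-34 family lies above the line.

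Next to the 12 h response, the 24 h interaction showed no difference that passed: in the 24 h minus 12 h comparison 0 of the 145 were called (0%) by limma, and 5 had an unadjusted p under 0.05. The smallest p-values were those of miR-210, with a log2 difference between the interactions of -0.76 ± 0.25, miR-423-5p with -0.83 ± 0.30 and miR-16 with -0.45 ± 0.17, all with an adjusted p of 0.88 by limma. MiR-423-5p was at -4.30 and -4.57 in KO at 24 h, and at -3.93 and -3.85 in WT at 24 h. In miR-210 the levels were -4.04 and -4.49 in KO at 12 h, and -2.82 and -3.13 in WT at 12 h. MiR-34c was at -3.22 and -3.25 in KO at 12 h and at the floor in WT at 12 h, and its interaction was 0.70 ± 0.28 higher at 24 h than at 12 h (adjusted p = 0.88). The 12 h interaction itself called 33 of the 145 by limma, 30 higher and 3 lower, among them 11 of the 12 miRNAs called at 24 h. MiR-34a did not pass there (adjusted p = 0.0588). The times share the untreated arrays, so the interactions at 12 h and 24 h are not independent of each other. Without KO at 24 h replicate 1, the 24 h minus 12 h comparison called 31, 11 higher and 20 lower.

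The 12 lists of miRNAs, made from general knowledge with earlier results of these data known, held 98 of the 145 tested miRNAs, 42 of them in more than 1 list. Of the 12 miRNAs, 10 were in a list and 2 in none (miR-148a and miR-130a). Of 25 tested miRNAs linked to the unfolded protein response, 1 had a higher response in KO (miR-34a) and 1 a lower one (miR-455), a share near the 8.28% of all tested, 23 did not pass, and the median of 0.35 lay beside 0.34 for all tested. The highest of the list in mean level were miR-125b-5p, miR-199a-3p and miR-29a, with interactions of -0.22, 0.00 and 0.76 that did not pass (adjusted p = 0.741, 1 and 0.299). The miR-106b to miR-25 cluster, which PERK signalling was reported to lower in mouse fibroblasts in a manner that needs ATF4 and Nrf2, is named outside the rule and after its values were seen. MiR-106b had levels of -1.13 and -1.58 in KO at 24 h, against -1.41 and -1.39 in untreated KO, and -1.51 on both arrays of WT at 24 h, against -0.81 and -0.82 in untreated WT. It fell in WT (-0.70 ± 0.16, adjusted p = 0.0249), as did miR-93 (-0.62 ± 0.15, adjusted p = 0.0282), but the fall of miR-25 did not pass (-0.44 ± 0.17, adjusted p = 0.120). None of the 3 interactions passed, with 0.75 ± 0.22 for miR-106b (adjusted p = 0.0772), 0.29 for miR-93 (adjusted p = 0.459) and 0.66 for miR-25 (adjusted p = 0.130). The Xbp1-linked and CHOP-linked members of the list, such as miR-30c-2* and miR-708, were too dim to test.

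**Figure D4:**
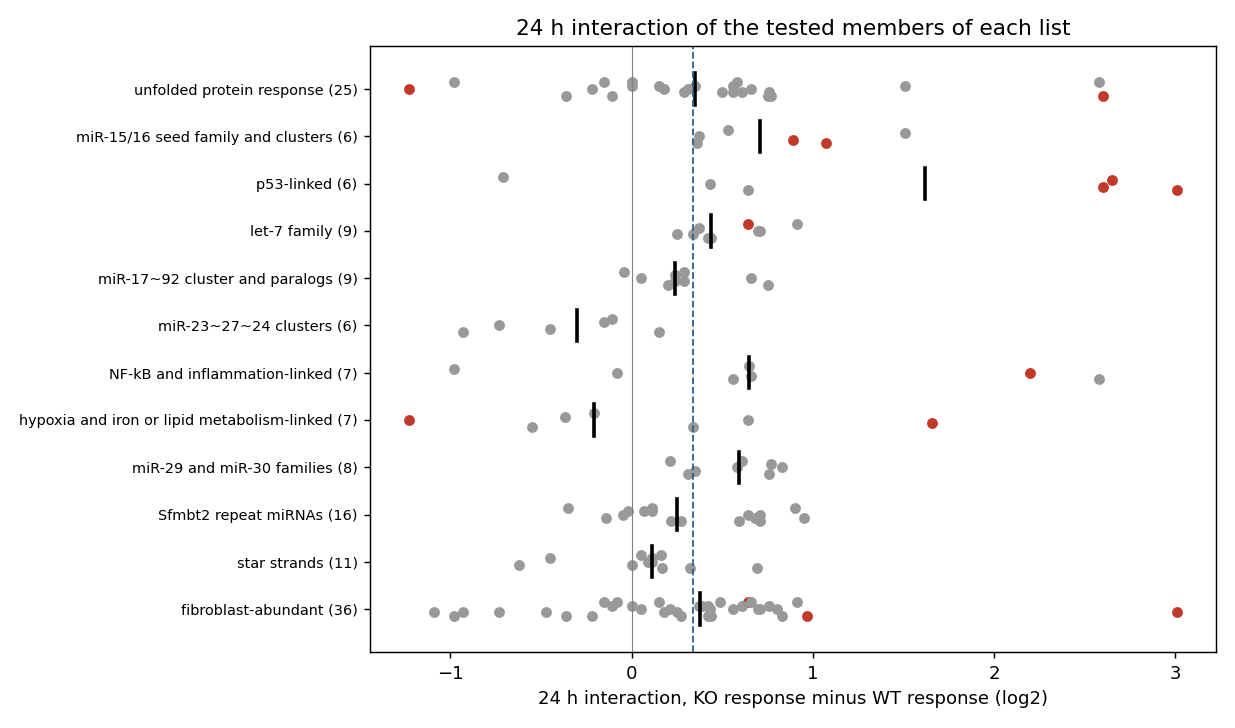
The 24 h interaction (log2, horizontal) of the tested members of each of the 12 lists, with the number tested in brackets. Red points passed the test, black bars are list medians, and the dashed line is the median of all 145 tested, 0.34. The p53-linked list has the highest median, 1.62, and that of the clusters of miR-23, miR-27 and miR-24 the lowest, -0.30.

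Among the p53-linked miRNAs, 3 of 6 tested had a higher response in KO, all of the miR-34 family, beside 8.28% of all tested, and the median was 1.62 beside 0.34. Of the other 3, miR-107 had 0.64 ± 0.19 (adjusted p = 0.0772), miR-143 had 0.43 (adjusted p = 0.454) and miR-194, at the floor on 7 of the 8 arrays, had -0.71 (adjusted p = 0.603). In the miR-15/16 family 2 of 6 passed, miR-497 and miR-195, beside 8.28% of all tested. Both were at the floor in 3 groups and entered the test only through untreated WT, the group that sets their interaction, so they do not speak for the family. All 6 were above 0, beside 113 of 145, with a median of 0.71 beside 0.34. MiR-322, from a cluster on the X chromosome, had 1.51 ± 0.40 (adjusted p = 0.0627), while miR-16 had 0.53 (adjusted p = 0.0844), and miR-15a and miR-15b 0.36 and 0.37 (adjusted p = 0.550 and 0.586). MiR-16 fell in WT (-0.72 ± 0.12, adjusted p = 0.00816), with levels of -0.83 and -1.12 in KO at 24 h, against -0.79 and -0.78 in untreated KO, and -0.76 and -0.69 in WT at 24 h, against -0.01 and 0.00 in untreated WT.

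Of the 7 miRNAs linked to NF-kB and inflammation, miR-146b passed and 6 did not, beside 8.28% of all tested, with a median of 0.65 beside 0.34. The oncomiR miR-21 had 0.66 (adjusted p = 0.179), miR-221, which represses the cell cycle inhibitor p27, had -0.98 ± 0.30 (adjusted p = 0.0805), and miR-31 had -0.08 (adjusted p = 0.891). Of 7 linked to hypoxia and iron or lipid metabolism, miR-210 passed as higher and miR-455 as lower, beside 8.28% of all tested, and the median was -0.21 beside 0.34, with miR-193 at -0.21 and miR-103 at 0.34. All 8 of the miR-29 family, which represses collagens, and the miR-30 family were above 0, beside 113 of 145, none passed, and the median was 0.59 beside 0.34. MiR-29a and miR-29b were the highest of these families in mean level with miR-30a, at 0.76, 0.83 and 0.35 (adjusted p = 0.299, 0.249 and 0.317).

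Of the remaining lists, only the fibroblast-abundant one held a miRNA that passed. The miR-17 to miR-92 cluster and its paralogs, known for promoting cell cycle entry, had 9 tested members with a median of 0.24, none called, and interactions of 0.24 for miR-19b, 0.29 for miR-92a and 0.24 for miR-20a. The clusters of miR-23, miR-27 and miR-24 had 6, none called, 5 of them below 0 with a median of -0.30, including -0.15 for miR-27a, -0.11 for miR-24 and 0.15 for miR-23a. The 16 tested miRNAs of the repeat cluster in Sfmbt2 had a median of 0.25 and the 11 star strands one of 0.11, with no call in either. Here the replicates spread widely: miR-466f-3p was at the floor and at 0.27 in KO at 24 h, against -3.43 and -3.46 in untreated KO, and at -2.53 and 0.18 in WT at 24 h, against -2.38 and -2.88 in untreated WT. Of 36 fibroblast-abundant miRNAs 3 passed (miR-34c, miR-26a and let-7c), a share near the 8.28% of all tested, with a median of 0.38 beside 0.34. Relative to the median of all tested, the medians of the let-7, unfolded protein response, Sfmbt2 and fibroblast-abundant lists turned sign under at least 1 other scaling, and in all of these they stayed within 0.24 of it.

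The miRNAs of highest mean level were miR-21, miR-720 and miR-125b-5p. MiR-720, a name now linked to a tRNA fragment, had levels of 2.16 and 2.05 in KO at 24 h, against 1.82 and 1.90 in untreated KO, and 2.92 and 2.85 in WT at 24 h, against 2.52 and 2.40 in untreated WT. It was lower in KO than in WT at 24 h (-0.78, adjusted p = 0.0147) and untreated (-0.60, adjusted p = 0.0222), with an interaction of -0.19 that did not pass (adjusted p = 0.671). With miR-690 and miR-709 it makes up the 3 names linked to tRNA or rRNA fragments. Their summed scaled level, most of it miR-720, was 5.23 to 6.50 in KO at 24 h, 4.90 to 5.17 in untreated KO, 8.28 to 9.43 in WT at 24 h and 7.54 to 8.15 in untreated WT. These sums were lower in KO than in WT in both states, and their part in the interactions was not tested.

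**Figure D5:**
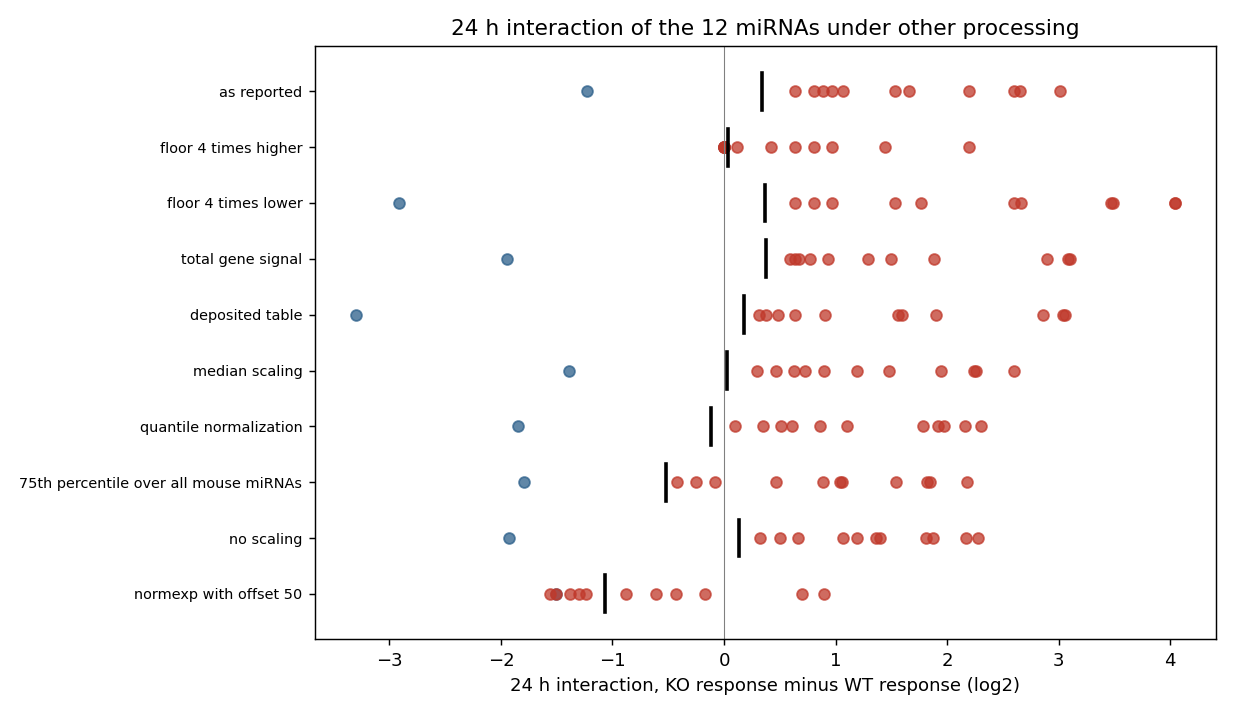
The 24 h interaction (log2, horizontal) of the 12 miRNAs as reported and under 9 other ways of processing, with miR-455 in blue, the others in red and the median of all tested miRNAs as a black bar. The signs were kept without scaling, with a lower floor, with the authors' summary values and with median or quantile scaling, while 3 turned with the 75th percentile over all mouse miRNAs and 9 with normexp.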

How the data were processed

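Total RNA was labelled with Cy3 and hybridised to Agilent 1-colour miRNA arrays, read with Agilent Feature Extraction 10.7.1.1 per the submitters' processing notes. Per the file headers, the deposited processed signal is an intensity per spot, background-subtracted and not scaled between arrays. The deposited value table holds log2 values of the authors' total gene signal, and leaves undetected miRNAs blank. The deposited flag columns used hold 0 or 1 for each spot, per the file headers.

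The processed signals of a probe's spots were averaged, leaving out control spots and outliers, and the probes of a miRNA added up. Scaling and flooring, as given in the report, came before log2. A miRNA counted as well above background if 50 percent or more of the spots of any of its probes were flagged so. All 12 arrays entered 1 fit of the group means (limma 3.58.1 under R 4.3.3, lmFit and eBayes), with 6 residual and 1.03 prior degrees of freedom. Benjamini-Hochberg adjustment ran over the 145 tested miRNAs, with a threshold of 0.05. The fit was tested on simulated data with independent noise and the same spread in every group of a miRNA. There, miRNAs held at the floor gave calls where no change had been put in. Changes put into miRNAs well above the floor, as many up as down, came out with little bias on average and, where called, with the right sign. That average would not show a bias that shrinks changes of both signs, and it does not cover miRNAs near the floor. The unequal spread of the groups and the shared scan dates were not simulated, so the p-values were not tested under them. The p-values measure the spread between 2 arrays a group, and so few arrays limit the precision.

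The rule for naming miRNAs took those past the threshold in the interaction (up to 15 each way), the 3 with the smallest p in the 24 h minus 12 h comparison, the 3 members of each list with the highest mean level, and the 3 highest of all. The members, lists and rule were chosen with earlier results of these data known.

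Replicate numbers pair KO and WT arrays of one treatment state, which the scan dates in the file headers and labels show: deviations of same-numbered arrays correlated at 0.83 at 24 h and 0.68 untreated. They do not pair untreated with tunicamycin arrays (-0.43 to -0.24). Alternatives covered background correction (normexp with offset 50 on the median signal, since the files hold no mean signal), the authors' summary values, scaling, floor, filter, spread, blocks and leaving out each array. Normexp with its parameters estimated after dropping spots whose local background was an outlier, and the 8 arrays with the scan date, were added after seeing the data.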

Additional observations from a re-analysis of the deposited data

Results flagged for a closer look

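The 12 miRNAs whose 24 h response differed between KO and WT by the test of the difference itself are listed here as the interaction, KO response minus WT response on the log2 scale. The value was 3.01 for miR-34c, 2.65 for miR-34b-5p and 2.60 for miR-34a. It was 2.20 for miR-146b, 1.66 for miR-210 and 1.53 for miR-148a. It was 1.07 for miR-497, 0.97 for miR-26a, 0.89 for miR-195, 0.81 for miR-130a and 0.64 for let-7c. For miR-455 it was -1.23. The gap between KO and WT was wider at 24 h than untreated in 5 of them (miR-34c, miR-34b-5p, miR-34a, miR-26a and let-7c) and narrower in 7, on 2 arrays a group. MiR-497, miR-195 and miR-455 had values above the floor in a single group, which was also the only group through which they entered the test.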

How the results depend on the processing

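With normexp 0 miRNAs passed in the interaction, the KO and WT responses and both genotype differences, and the interaction turned to -0.88 for miR-34c, -1.24 for miR-34b-5p, -0.17 for miR-34a, -0.43 for miR-26a, -0.61 for miR-210, -1.30 for miR-146b, -1.38 for miR-148a, -1.51 for miR-497 and -1.56 for miR-195, beside a median of -1.07. With normexp estimated after dropping spots of outlying local background, 0 passed in the interaction and at 24 h, 11 in the KO response, 1 in the WT response and 15 untreated, and miR-455 turned to 0.11. Scaling by the 75th percentile of all mouse miRNAs, 0 passed in the interaction, the WT response and at 24 h, and 1 each in the KO response and untreated, while miR-26a was at -0.08, let-7c at -0.42 and miR-130a at -0.25. The causes were not tested. The total gene signal gave 3 in the interaction, 1 in the 24 h minus 12 h comparison, 0 in the WT response, 6 at 24 h and 4 untreated, and the deposited table gave 3, 1, 16 in the KO response, 8 at 24 h and 10 untreated. Median scaling gave 5 in the interaction, 1 in the KO response, 3 in the WT response, 5 at 24 h and 14 untreated. Quantile normalization gave 1, 1, 3, 0 and 5 in the same order. No scaling gave 55 in the KO response, 63 in the WT response, 6 at 24 h and 26 untreated. A floor 4 times higher gave 7, 0, 14, 10 and 22 in the same order as median scaling, and no filter 5, 1, 11, 5 and 21. Testing the miRNAs above background on all 8 arrays gave 0 in the interaction and the KO response, 4 in the WT response and 23 untreated. The 8 arrays alone gave 7 in the interaction and 6 in the KO response, and 0 in the interaction with the scan date as a block. Separate spreads for untreated and tunicamycin arrays gave 22 in the interaction, 5 in the KO response, 34 in the WT response and 87 untreated. The scan date as a random block gave 23 in the interaction, and as a fixed block 14 at 24 h. With the replicate block, which pairs KO and WT arrays, 14 passed in the interaction and let-7c did not.

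Leaving out an array in turn gave 6 to 35 calls in the interaction, 0 to 31 in the 24 h minus 12 h comparison, 1 to 37 in the KO response, 7 to 47 in the WT response, 5 to 44 at 24 h and 12 to 74 untreated. A lone array was then assumed to vary like the other groups. The highest interaction counts came without KO at 24 h replicate 1 (35) or replicate 2 (33). MiR-34c, miR-34b-5p and miR-210 passed in all 12 such fits, miR-146b and miR-148a in 4, let-7c in 3, and miR-26a, miR-34a and miR-130a in 2. These fits say nothing of the stability of miR-497, miR-195 and miR-455, which lie at the floor on 6 of the 8 arrays. They also say little of that of miR-34c, miR-34b-5p and miR-210. Each of these was at the floor on both arrays of a group, which adds no spread to the fit. With all arrays and a floor 4 times higher, miR-34c and miR-34b-5p did not pass. Among the other 18 alternatives with a test, miR-455 passed in 11, miR-34b-5p, miR-497 and miR-195 in 10, miR-34c and miR-210 in 9, miR-146b in 7 and miR-148a in 6, and of 19, miR-26a, miR-34a and miR-130a in 5 and let-7c in 4. Of the calls above, 1 of 3 with the total gene signal or the deposited table, 2 of 7 with the higher floor, 4 of 5 without filter and 5 of 15 without scaling were among the 12. The number of arrays and the signal over background limit what can be seen.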
